A study of Homo sapiens with 39 samples.

Results

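The subunits of Polycomb repressive complex 2 (PRC2) were followed through pooled CRISPR knockout screens in A375, a human melanoma line driven by mutant BRAF. The cells screened were knockouts of MED12 or of MED23, each of which encodes a subunit of Mediator, the coactivator that links transcription factors to RNA polymerase II. Guides were assigned by name to 8 genes, EZH2, EZH1, EED, SUZ12, RBBP4, RBBP7, AEBP2 and JARID2, out of 1115 genes targeted by an epigenetic library (10 guides per gene, 80 PRC2 guides of 12214) and 19113 targeted by a whole-genome library (4 guides per PRC2 gene, 32 of 77441). The rule uses names and no values, and it was set with earlier results of these data known. MED12 knockout cells carrying either library were grown in 2 µM vemurafenib, an inhibitor of mutant BRAF, or in DMSO, its solvent, and sampled at days 0, 8 and 14. MED23 knockout cells carrying the epigenetic library were grown in 1 µM vemurafenib or in DMSO and sampled at days 0 and 14. Each of the 13 groups had 3 libraries, 39 in all. Every group carried a Mediator knockout, and no cells with intact MED12 and MED23 were analysed here. The labels give no clone for either knockout line, and do not say whether replicates were infected or cultured separately, so the spread between libraries may be technical.

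PRC2 methylates lysine 27 of histone H3, a mark of repressed genes. EZH2 and its paralog EZH1 are the alternative methyltransferase subunits, EED binds the methylated product and stimulates the enzyme, and SUZ12 is the scaffold that holds the core together. RBBP4 and RBBP7 are paralogous histone-binding proteins that also belong to other complexes, among them the NuRD deacetylase and the CAF-1 histone chaperone, and AEBP2 and JARID2 are accessory subunits that help PRC2 to bind chromatin. In a knockout screen a guide is counted in genomic DNA. A guide that becomes rarer than the others is read as marking cells that grew or survived less well. One that becomes more frequent is read as marking cells that did so better. Control guides also changed in frequency, with the spread given below, so a change in a single guide need not reflect the gene it targets.

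The epigenetic libraries held 22846325 to 28994690 guide reads each in MED23 knockout cells and 16385695 to 20814734 reads in MED12 knockout cells. The whole-genome libraries held 47766947 to 87591804 reads. The log2 abundance of each control guide was taken relative to its own day-0 mean. In MED23 knockout cells at day 14 the standard deviation of these changes over control guides was 0.88 to 1.01 in vemurafenib libraries. It was 0.84 to 0.87 in DMSO libraries. At day 0, whose libraries make up that mean, it was 0.13 to 0.14. In the whole-genome screen it reached 1.65 to 1.72 in vemurafenib libraries and 1.31 to 1.38 in DMSO libraries at day 14, against 0.22 to 0.23 at day 0. Reads were PCR products without molecular identifiers in the labels, so intervals from counting would cover counting error only, and none are given.

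In MED23 knockout cells under vemurafenib, cells with guides against RBBP4, EED and EZH2 were more frequent than in DMSO at day 14, those with guides against RBBP7 were less frequent, and the other members did not pass the test. Each gene has 2 summaries. One is the median log2 fold change of its guides. The other is its gene score, the mean of log2(CPM + 0.5) over its guides in a library, where CPM, the usual per-library scale, divides a guide's reads by the library total times edgeR's TMM factor. Its change between groups carries a standard error (SE) over libraries. Where the libraries of groups are said not to overlap, the share of all genes that do so was not counted. A gene was called at an adjusted p under 0.05 after guide tests with edgeR and robust rank aggregation (RRA) over all genes of the library. By this rule 4 of 8 members were called, where 10.8% of all 1115 genes were called. Of the 80 PRC2 guides 23 were called singly, all of them higher in vemurafenib, where 8.38% of the 12214 guides were called in either direction. The median over all genes was 0.09 and control guides (those named AAVS1 or CTRL) ran from -0.65 at the 5th percentile to 1.25 at the 95th.

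The scaling set the level of these values. The TMM factors, which multiply the library total, were 0.51 to 0.70 in the 3 vemurafenib libraries and 1.24 to 1.25 in the 3 DMSO libraries of MED23 knockout cells. With library totals alone, an alternative chosen after seeing the data, the median over all genes was -0.97 and that of the control guides -1.15, against 0.09 and -0.09 with TMM and 0.24 and 0.06 with scaling to control guides. With totals alone RBBP4 (median 1.48, edgeR/RRA adjusted p = 4.90e-05) and EED (0.40, adjusted p = 0.000527) were still called. EZH2 had a median of -0.20 and was not called (edgeR/RRA adjusted p = 0.713), nor was RBBP7 (-1.59, adjusted p = 0.0791). The rises and falls below are therefore relative to the bulk of guides as TMM places it, and for EZH2 the sign turns with library totals.

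**Figure D1:**
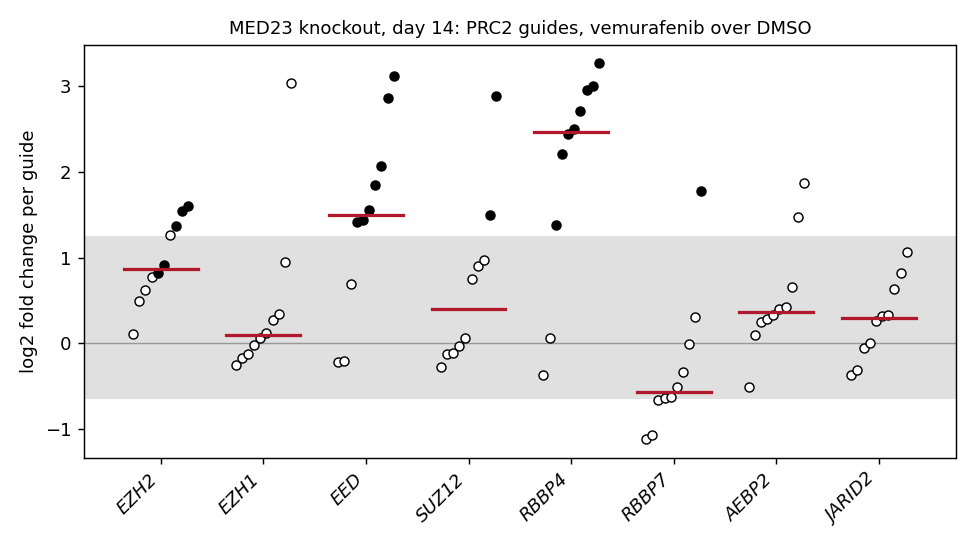
Log2 fold change of each PRC2 guide (y axis, vemurafenib over DMSO) in MED23 knockout cells at day 14, by gene (x axis). Filled circles are guides called by edgeR, open circles are not called, red lines are medians over 10 guides, and the grey band holds the control guides from the 5th to the 95th percentile (-0.65 to 1.25). Of the guides against RBBP4, 8 of 10 lie above the band, and of those against EED, 7 of 10.

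EZH2, the main methyltransferase of dividing cells, had a gene score relative to the day-0 mean of 0.33, 0.79 and 0.56 in the 3 vemurafenib libraries, -0.44, -0.32 and -0.40 in the 3 DMSO libraries, and -0.02, -0.02 and 0.04 at day 0. The vemurafenib libraries all lay above the DMSO and the day-0 libraries. EZH2 rose, with a median over guides of 0.87 and a score change of 0.95 ± 0.14 (SE, 3 libraries in each group; edgeR/RRA adjusted p = 0.00249). All 10 of its guides were higher in vemurafenib, from 0.11 for EZH2_9 to 1.61 for EZH2_4, and 5 were called. EZH2_4 had 96.4, 109 and 120 CPM in vemurafenib, against 16.4, 46.8 and 43.5 CPM in DMSO. In TMM-scaled units, summed over its guides, EZH2 held 1082 ± 116 CPM in vemurafenib and 569 ± 18.1 CPM in DMSO (SD, n = 3 libraries each).

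EZH1, whose methyltransferase activity is weaker than that of EZH2, did not pass (median 0.09, gene score change 0.22 ± 0.21, edgeR/RRA adjusted p = 1). Its summed abundance was 551, 599 and 2180 CPM in the 3 vemurafenib libraries, against 548, 524 and 612 CPM in DMSO. The high value belonged to 1 guide in 1 library: EZH1_10 had 66.8, 39.5 and 1696 CPM in vemurafenib, against 60.0, 58.1 and 102 CPM in DMSO. The other 9 EZH1 guides lay within the band of the control guides.

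EED, the subunit that binds methylated lysine 27, had gene scores relative to day 0 of 0.59, 1.07 and 0.94 in vemurafenib, -0.61, -0.66 and -0.41 in DMSO, and -0.10, 0.02 and 0.07 at day 0. Every vemurafenib library lay above every other library. EED rose, with a median of 1.49 and 7 of 10 guides called (score change 1.43 ± 0.16, edgeR/RRA adjusted p = 0.000368). The highest guide was EED_4 at 3.11, with 126, 269 and 172 CPM in vemurafenib against 20.7, 19.2 and 25.6 CPM in DMSO, and the lowest was EED_9 at -0.22. EED_10, the most abundant EED guide, had 600, 505 and 592 CPM in vemurafenib, against 54.7, 86.1 and 93.2 CPM in DMSO. Summed over all guides EED held 1450 ± 138 CPM in vemurafenib and 410 ± 39.1 CPM in DMSO.

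SUZ12, the scaffold without which PRC2 is unstable, was less uniform. Its gene scores relative to day 0 were 0.07, -0.13 and 0.01 in vemurafenib and -0.53, -0.89 and -0.75 in DMSO, without overlap. The guides were split, 6 higher and 4 lower, with a median log2 of 0.40, and SUZ12 did not pass (gene score change 0.71 ± 0.12, edgeR/RRA adjusted p = 1). Only SUZ12_10 (2.88) and SUZ12_1 (1.50) were called. With limma on gene scores, which weighs all guides alike and called 419 genes, the adjusted p for SUZ12 was 0.000218.

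RBBP4 had the largest median of the 8 members. Its gene scores relative to day 0 were 0.52, 0.23 and 0.12 in vemurafenib, against -1.59, -1.42 and -1.78 in DMSO, and the groups did not overlap. RBBP4 rose, with a median of 2.47 (score change 1.89 ± 0.16, edgeR/RRA adjusted p = 5.97e-05), with 8 of 10 guides called. RBBP4_7, the highest guide at 3.26, had 47.8, 31.4 and 29.2 CPM in vemurafenib against 3.83, 5.59 and 1.84 CPM in DMSO, while RBBP4_4, the lowest at -0.37, had 86.2, 64.7 and 81.2 CPM against 87.1, 132 and 80.1 CPM.

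Ribosomal protein genes, which every dividing cell needs, were counted in the same contrast. Of 22 in the library 5 rose in vemurafenib against DMSO, 0 fell and the other 17 did not pass, where 10.8% of all genes were called, with a median over the 22 genes of 1.07. The part of this shift in the RBBP4, EED and EZH2 values was not tested. Against day 0 the ribosomal protein genes fell in both arms, 17 of 22 under vemurafenib (median -2.04) and 17 of 22 in DMSO (median -2.95). Of all genes 16.2% and 18.2% were called in these contrasts. The medians of RBBP4, EED and EZH2 were 0.29, 0.95 and 0.62 under vemurafenib and -1.91, -0.70 and -0.35 in DMSO. Of these 3 genes only EED was called under vemurafenib and only RBBP4 in DMSO. With scaling to control guides their vemurafenib medians were -0.14, 0.51 and 0.18.

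RBBP7, the paralog of RBBP4, fell under vemurafenib by a median log2 of 0.56 (edgeR/RRA adjusted p = 0.0248), while its score change was -0.30 ± 0.13 and its libraries overlapped, at -0.54, -0.44 and -0.15 in vemurafenib against 0.01, -0.16 and -0.07 in DMSO. Of its guides 8 were lower and 2 higher, and the single guide called went the other way: RBBP7_4 had 71.3, 73.1 and 75.3 CPM in vemurafenib against 28.5, 21.7 and 14.1 CPM in DMSO (log2 1.77). The RBBP7 call was lost without DMSO replicate 3 (edgeR/RRA adjusted p = 0.0697), without vemurafenib replicate 1 (edgeR/RRA adjusted p = 0.107) and with limma (adjusted p = 0.0528). The files hold no guide sequences, so a cut in the paralog by guides against RBBP4 or RBBP7 was not tested.

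The accessory subunits did not pass with edgeR and RRA. AEBP2 had a median of 0.37 (gene score change 0.45 ± 0.19, edgeR/RRA adjusted p = 1; limma adjusted p = 0.0262), and its summed abundance was 1346, 688 and 683 CPM in vemurafenib against 474, 580 and 657 CPM in DMSO. In the library that stood highest the guide AEBP2_1 did too, with 486, 51.7 and 74.7 CPM in vemurafenib against 53.5, 40.4 and 74.1 CPM in DMSO. JARID2 had a median of 0.30 (gene score change 0.26 ± 0.08, edgeR/RRA adjusted p = 1), with scores relative to day 0 of 0.51, 0.74 and 0.50 in vemurafenib and 0.37, 0.33 and 0.28 in DMSO.

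**Figure D2:**
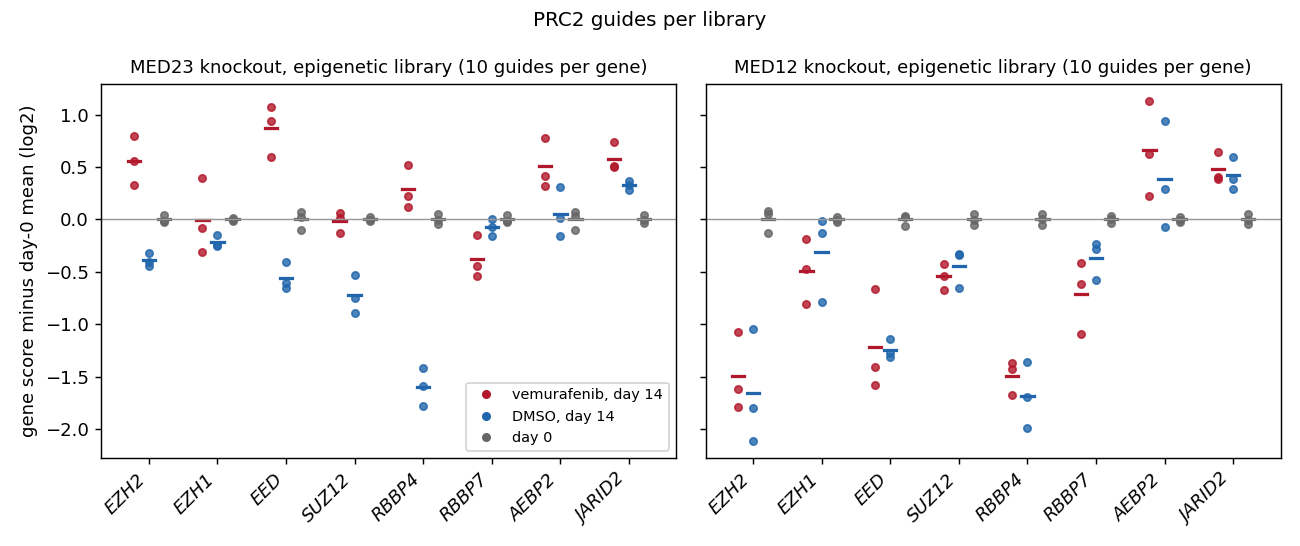
Gene score of each PRC2 member in each library relative to the mean at day 0 (y axis, log2), by gene (x axis), in MED23 knockout (left) and MED12 knockout cells (right) with the epigenetic library. Points are libraries and short lines are means of 3: vemurafenib at day 14 in red, DMSO at day 14 in blue, day 0 in grey. In MED23 knockout cells the EED libraries lie at 0.59 to 1.07 in vemurafenib and at -0.66 to -0.41 in DMSO, while in MED12 knockout cells they lie below day 0 in both arms.

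Comparisons with day 0, which share libraries with the contrast above, placed each member in the 2 arms of the MED23 knockout screen. Under vemurafenib 1 of 8 members was called against day 0, where 16.2% of all genes were called. EED rose (median 0.95, gene score change 0.87 ± 0.15, edgeR/RRA adjusted p = 0.00112), with 6 guides called. EZH2 missed the threshold, with a median of 0.62 (0.56 ± 0.13, edgeR/RRA adjusted p = 0.0734). RBBP4 had a median of 0.29 and SUZ12 of -0.11 (edgeR/RRA adjusted p = 0.923 and 1). AEBP2 and JARID2 had medians of 0.82 and 0.61 with 3 and 4 guides called upward (edgeR/RRA adjusted p = 0.287 and 0.194). Over all members 23 of 80 guides were called, 21 higher and 2 lower, where 25.3% of all guides were called. Control guides had a median of 0.50 in this contrast, and when libraries were scaled to them the median of EED was 0.51 (edgeR/RRA adjusted p = 0.000532) and that of EZH2 0.18. With library totals alone the median of EED was -0.28 and it was not called (edgeR/RRA adjusted p = 0.0950), where the median over all genes was -1.15, against 0.06 with TMM.

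In DMSO 1 of 8 members was called against day 0, where 18.2% of all genes were called. RBBP4 fell, with a median of -1.91 (score change -1.60 ± 0.11, edgeR/RRA adjusted p = 0.021), with 8 of its 10 guides called lower. RBBP4_4 was called higher, with 87.1, 132 and 80.1 CPM in DMSO against 52.0, 41.9 and 50.3 CPM at day 0. RBBP4 did not pass in edgeR/RRA with scaling to control guides (adjusted p = 0.068), with an RRA alpha of 0.1 (adjusted p = 0.632), or without DMSO replicate 1 (adjusted p = 0.112) or 2 (adjusted p = 0.102). EED (median -0.70), SUZ12 (-0.51) and EZH2 (-0.35) did not pass (edgeR/RRA adjusted p = 0.629, 0.553 and 1). All 3 DMSO libraries of each lay below all day-0 libraries, as did those of EZH1, while those of JARID2 lay above. The share of all genes that separate in this way was not counted. Limma on gene scores called 59.6% of all genes in this contrast. JARID2 had a median of 0.53 (edgeR/RRA adjusted p = 0.137), which was -0.04 with scaling to control guides, whose own median was 0.59. Of the 80 PRC2 guides 24 were called, 7 higher and 17 lower, where 36.2% of all guides were called.

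In MED12 knockout cells guides against EZH2, RBBP4 and EED became rarer during growth in DMSO, and no member was called for vemurafenib against DMSO. Against day 0, 3 of 8 members were called in DMSO at day 14, all lower, where 5.2% of all genes were called. EZH2 fell, with a median of -1.50 (score change -1.65 ± 0.32, edgeR/RRA adjusted p = 0.000891). Its scores relative to day 0 were -1.80, -2.11 and -1.05 in DMSO at day 14, against 0.05, -0.13 and 0.09 at day 0. The guide with the lowest value, EZH2_3 at -2.97, had 1.13, 0.239 and 18.3 CPM in DMSO against 51.5, 42.7 and 59.9 CPM at day 0. EZH2_9, the highest at 0.63, had 22.3, 176 and 118 CPM in DMSO against 64.9, 63.5 and 76.7 CPM, so that its libraries fell on both sides of day 0.

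RBBP4 fell, with a median of -2.35 (score change -1.68 ± 0.19, edgeR/RRA adjusted p = 0.0012), with scores of -1.36, -1.70 and -2.00 in DMSO against 0.05, 0.00 and -0.06 at day 0. The sum of its guides did not show this, at 659, 798 and 421 CPM in DMSO against 675, 662 and 667 CPM at day 0. RBBP4_5 alone held 52.4% of the DMSO sum, with 333, 564 and 87.1 CPM in DMSO against 143, 152 and 148 CPM at day 0, while the other 9 guides had log2 values below 0. EED fell, with a median of -1.20 (score change -1.24 ± 0.06, edgeR/RRA adjusted p = 0.0353), with scores of -1.27, -1.15 and -1.31 in DMSO against 0.04, -0.06 and 0.02 at day 0. EED did not pass in edgeR/RRA with scaling to control guides (adjusted p = 0.0593), with an RRA alpha of 0.1 (adjusted p = 0.703), or without DMSO replicate 1 (adjusted p = 0.122) or 3 (adjusted p = 0.138). It did not pass with library totals alone either (median -1.67, edgeR/RRA adjusted p = 0.0758).

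The remaining members did not pass in DMSO against day 0. SUZ12 had a median of -0.24 and EZH1 of 0.04 (edgeR/RRA adjusted p = 1 each), RBBP7 0.39 (adjusted p = 0.417), AEBP2 0.45 (adjusted p = 1) and JARID2 0.49 (adjusted p = 0.671). For JARID2 all 3 DMSO libraries, at 0.60, 0.29 and 0.38, lay above day 0, and the median of control guides was 0.42. For RBBP7 the gene score went the other way from the median, at -0.36 ± 0.11, since 4 guides had negative values as low as -3.48 (RBBP7_6). Only EZH2_2 (-2.23) and RBBP4_8 (-2.25) were called among 80 PRC2 guides, where 2.27% of all guides were called.

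**Figure D3:**
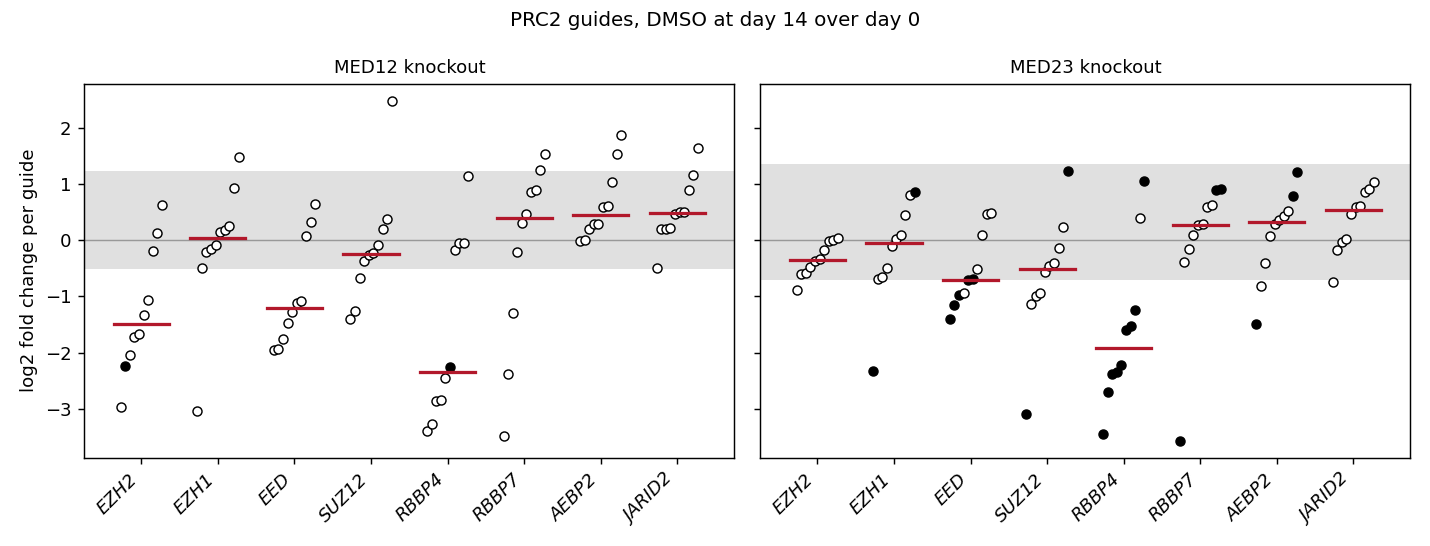
Log2 fold change of each PRC2 guide (y axis, DMSO at day 14 over day 0) by gene (x axis), in MED12 knockout cells (left) and MED23 knockout cells (right) with the epigenetic library. Filled circles are guides called by edgeR, red lines are medians over 10 guides, and grey bands hold the control guides from the 5th to the 95th percentile. The median of EZH2 is -1.50 in MED12 knockout cells and -0.35 in MED23 knockout cells.

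Vemurafenib against DMSO gave 0 of 8 members called in MED12 knockout cells at day 8, where 1.7% of all genes and 0% of guides were called, and 0 of 8 at day 14, where 1.43% of genes and 0.0491% of guides were called. At an unadjusted p under 0.05 the member count was 0 at both times, and with DESeq2 it was also 0 at both. Of all 1115 genes 107 and 80 had such a p at days 8 and 14, and DESeq2 called 20 and 15. Of the 80 PRC2 guides 0 were called at either time, 0 and 3 had an unadjusted p under 0.05 at days 8 and 14, and DESeq2 called 0 and 1. Of all 12214 guides 26 and 845 had such a p, and DESeq2 called 1 and 134. At day 14 the scores of EZH2 relative to day 0 were -1.79, -1.62 and -1.08 in vemurafenib and -1.80, -2.11 and -1.05 in DMSO, and the groups overlapped. EED had scores of -0.66, -1.41 and -1.58 in vemurafenib against -1.27, -1.15 and -1.31 in DMSO. RBBP4 had -1.37, -1.43 and -1.68 in vemurafenib against -1.36, -1.70 and -2.00 in DMSO. The gene score changes of these 3 members at day 14 were 0.16 ± 0.38, 0.03 ± 0.29 and 0.19 ± 0.21 (SE). Taken within replicate numbers, which pair these libraries, the differences averaged 0.16 ± 0.17, 0.03 ± 0.29 and 0.19 ± 0.10 (SE, 3 pairs). EZH2 was higher in vemurafenib in 3 of 3 pairs at day 8, by 0.33, 0.40 and 0.03, and in 2 of 3 at day 14, by 0.02 and 0.49 against -0.03. JARID2 was lower in 3 of 3 pairs at day 8 (-0.05, -0.03 and -0.20). At day 14 AEBP2 (0.19, 0.30 and 0.33) and JARID2 (0.05, 0.11 and 0.003) were higher in 3 of 3 pairs. RBBP7 (-0.38, -0.52 and -0.13), EZH1 (-0.34, -0.17 and -0.02) and SUZ12 (-0.10, -0.02 and -0.20) were lower in 3 of 3. The share of all genes with 3 of 3 pairs alike was not counted, so these signs are described and not tested. At day 14 the median log2 fold change was 0.07 over all genes and 0.10 over control guides. The main fit did not use the pairing by replicate number. With the replicate block EZH2 was not called at either day (edgeR/RRA adjusted p = 0.654 at day 8 and 1 at day 14). No other member was called at either day in any of the 13 alternatives, the replicate block among them.

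The scores of EZH2, EED and RBBP4 were already negative at day 8, for which no test against day 0 was made. The mean score of EZH2 relative to day 0 was -0.86 ± 0.11 in vemurafenib and -1.12 ± 0.31 in DMSO at day 8, and -1.49 ± 0.37 in vemurafenib and -1.65 ± 0.55 in DMSO at day 14 (SD, n = 3 libraries each). EED stood at -0.77 ± 0.22 in vemurafenib and -0.79 ± 0.10 in DMSO at day 8, and at -1.22 ± 0.49 in vemurafenib and -1.24 ± 0.09 in DMSO at day 14. RBBP4 stood at -1.01 ± 0.24 in vemurafenib and -1.08 ± 0.28 in DMSO at day 8, and at -1.49 ± 0.17 in vemurafenib and -1.68 ± 0.32 in DMSO at day 14. The libraries of both arms overlapped for each of these genes at both times.

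**Figure D4:**
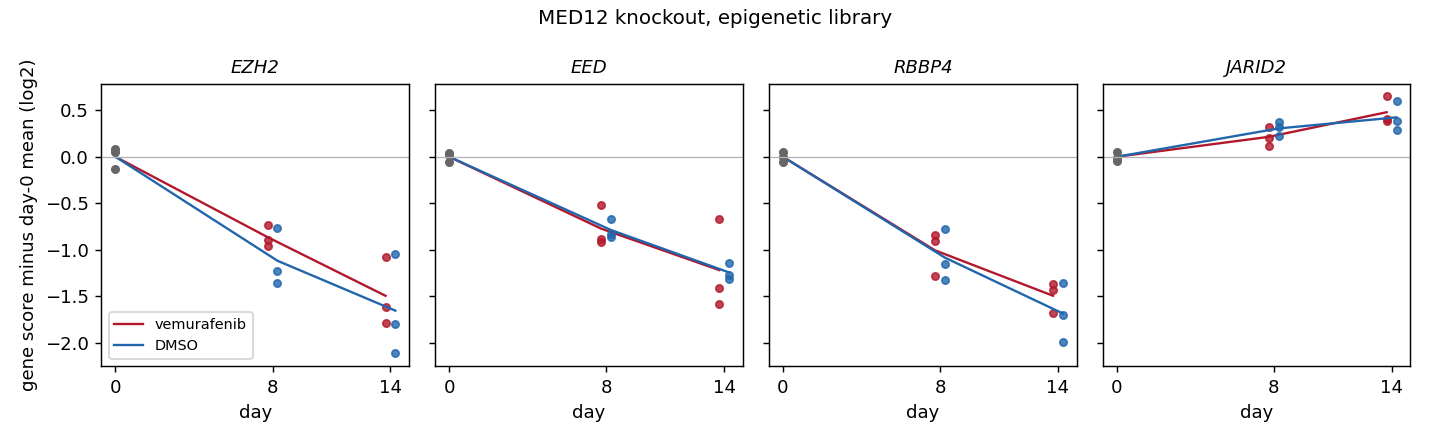
Gene score of EZH2, EED, RBBP4 and JARID2 in MED12 knockout cells with the epigenetic library (y axis, log2, relative to the day-0 mean) against day of culture (x axis). Points are libraries, grey at day 0, and lines join the means of 3 libraries in vemurafenib (red) and DMSO (blue). EZH2 reaches -1.49 in vemurafenib and -1.65 in DMSO at day 14, with overlapping libraries.

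Against day 0 the vemurafenib arm had 0 of 8 members called at day 14, where 3.23% of all genes were called. At an unadjusted p under 0.05 there were 4 members, EZH2, RBBP4 and RBBP7 downward and JARID2 upward, where 150 of 1115 genes had such a p. DESeq2 called 0 members, where it called 46 genes. EZH2 had a median of -1.15 (gene score change -1.49 ± 0.22, edgeR/RRA adjusted p = 0.0698) and RBBP4 of -1.75 (-1.49 ± 0.10, edgeR/RRA adjusted p = 0.0887). With the replicate number as a block, which pairs the libraries of this screen, EZH2 passed (median -1.36, edgeR/RRA adjusted p = 0.0271), and so it did with library totals alone (-1.90, adjusted p = 0.0490). EED had a median of -0.78 (edgeR/RRA adjusted p = 0.525), with 1 library at -0.66 and the others at -1.41 and -1.58. Of the 80 PRC2 guides 8 were called, 6 lower and 2 higher (SUZ12_1 and AEBP2_7), where 6.62% of all guides were called.

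The 2 knockout lines were set against each other by testing the difference of their effects in a single edgeR model of the epigenetic libraries. For growth in DMSO against day 0, MED12 minus MED23, 1 of 8 members was called, where 5.92% of all genes were called. EZH2 had the lower value in MED12 knockout cells, with a median of -1.50 there and -0.35 in MED23 knockout cells, and a median difference over guides of -1.40 (gene score difference -1.35 ± 0.33, edgeR/RRA adjusted p = 0.00148). Of its 10 guides 7 had negative differences, down to -2.16 for EZH2_3, and 3 had positive ones, up to 1.12 for EZH2_9. None of these guides was called singly. Of the 80 PRC2 guides only RBBP7_4 was called, where 163 of all guides were called. RBBP4 had a difference of -0.28 and SUZ12 of 0.30 (edgeR/RRA adjusted p = 0.863 and 1). EED had -0.41 (gene score difference -0.78 ± 0.11, edgeR/RRA adjusted p = 0.711). Of 22 ribosomal protein genes 4 were called in this difference, all with the higher value in MED12 knockout cells (list median 1.74). Their list medians for DMSO against day 0 were -0.82 in MED12 and -2.95 in MED23 knockout cells. Each knockout was screened separately, so knockout and screen cannot be told apart.

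For the vemurafenib effect, MED12 minus MED23, 1 of 8 members was called, where 4.22% of all genes were called. RBBP4 had the lower effect in MED12 knockout cells, with a median of 0.46 there and 2.47 in MED23 knockout cells, and a median difference of -1.55 (gene score difference -1.50 ± 0.26, edgeR/RRA adjusted p = 0.0441). This call did not pass with DESeq2 and RRA (adjusted p = 0.121) or without any 1 of 7 of the 12 libraries compared (edgeR/RRA adjusted p = 0.0581 to 0.171), which were MED12 vemurafenib replicates 2 and 3, MED12 DMSO replicate 1, MED23 vemurafenib replicates 1 and 2 and MED23 DMSO replicates 2 and 3. EED had a difference of -1.38 (-1.20 ± 0.33, edgeR/RRA adjusted p = 0.109) and EZH2 of -0.49 (-0.60 ± 0.40, edgeR/RRA adjusted p = 0.569). Of the 80 PRC2 guides only EED_10 was called (-2.46, edgeR adjusted p = 0.0122) and no RBBP4 guide was, where 91 of all guides were called. The vemurafenib dose was 2 µM in MED12 and 1 µM in MED23 knockout cells, so dose and knockout cannot be told apart. With library totals alone RBBP4 was called at -0.99 (edgeR/RRA adjusted p = 0.0173), where the median over all genes was 0.70, against 0.11 with TMM.

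The guides of RBBP7 with the highest and lowest growth difference went opposite ways. RBBP7_4 had a growth difference of 4.73, with 486, 134 and 290 CPM in MED12 knockout cells in DMSO and 141, 117 and 123 CPM at day 0, against 28.5, 21.7 and 14.1 CPM in MED23 knockout cells in DMSO and 252, 259 and 253 CPM at day 0. RBBP7_6 had a difference of -4.18, with 0, 1.01 and 1.17 CPM in MED12 knockout cells in DMSO and 8.52, 9.06 and 7.07 CPM at day 0, against 18.6, 45.4 and 36.9 CPM in MED23 knockout cells in DMSO and 26.4, 19.2 and 20.9 CPM at day 0. Only RBBP7_4 was called among its guides, and the gene did not pass (median -0.18, edgeR/RRA adjusted p = 0.126).

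With the whole-genome library, screened only in MED12 knockout cells, no contrast called a PRC2 member or any guide. For vemurafenib against DMSO 0 of 8 members were called at day 8, where 0.0262% of 19101 genes and 0% of 77158 guides were called, and 0 of 8 at day 14, where 0% of genes and 0% of guides were called. Against day 0, 0 of 8 were called in DMSO at day 14, where 0.152% of genes and 0% of guides were called, and 0 of 8 in vemurafenib, where 0.0524% of genes and 0% of guides were called. At an unadjusted p under 0.05 the members numbered 0 and 0 for the drug at days 8 and 14, 1 for vemurafenib against day 0 and 2 for DMSO against day 0, and DESeq2 called 0 of the 7 it tested in every contrast. Among all 19101 genes the numbers at an unadjusted p under 0.05 were 1071, 1001, 1283 and 1468 in that order. Of the 32 PRC2 guides, 0 and 3 had an unadjusted p under 0.05 for the drug at days 8 and 14, 9 for vemurafenib and 6 for DMSO against day 0. Of all 77158 guides 82 and 2579 did so for the drug, 13246 for vemurafenib and 7846 for DMSO against day 0. DESeq2 called 0 PRC2 guides for the drug at both times, 4 for vemurafenib and 3 for DMSO against day 0. Of all guides it called 0 and 276 for the drug, 9128 for vemurafenib and 3430 for DMSO against day 0.

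Gene scores of the core members in this library had a wide spread over libraries. SUZ12 had a median of -2.48 in vemurafenib and -3.31 in DMSO (edgeR/RRA adjusted p = 0.844 and 0.424), with gene scores of -0.91, -2.17 and -2.53 in vemurafenib, -0.73, -2.26 and -1.83 in DMSO, and 0.15, -0.05 and -0.10 at day 0. Both arms lay below day 0, and the SUZ12_4 guide was at 0 reads in all 3 vemurafenib libraries. With limma the adjusted p for SUZ12 was 0.0429 in vemurafenib against day 0, where limma called 6.39% of all genes. In DMSO against day 0 limma did not call it. EZH2 had scores of -0.51, -0.81 and -0.15 in vemurafenib, -1.07, -1.31 and -0.55 in DMSO, and -0.29, 0.34 and -0.05 at day 0. EED had -1.44, 0.10 and -1.81 in vemurafenib, -0.88, -0.03 and -1.04 in DMSO, and 0.02, -0.22 and 0.20 at day 0. EED and, under vemurafenib, EZH2 overlapped with day 0. EZH2 was higher in vemurafenib than in DMSO in 3 of 3 pairs of replicate number, by 0.57, 0.50 and 0.40, and with the replicate block it was not called (edgeR/RRA adjusted p = 1). The share of all genes with 3 of 3 pairs alike was not counted in this screen either. The second replicate of EED, which stood apart in both arms, was carried by EED_4, with 0.891, 281 and 0.916 CPM in vemurafenib and 5.99, 101 and 1.72 CPM in DMSO, against 5.03, 8.44 and 9.65 CPM at day 0.

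For RBBP7 all 4 guides had negative values in both arms, with a median of -1.87 in vemurafenib and -1.85 in DMSO (edgeR/RRA adjusted p = 0.797 and 0.505). Its gene scores were -1.10, -1.83 and -1.93 in vemurafenib, -2.41, -1.60 and -2.16 in DMSO, and 0.09, 0.13 and -0.21 at day 0, without overlap, and limma gave adjusted p = 0.0149 for vemurafenib and 0.0053 for DMSO. RBBP4 had scores of -0.09, -0.83 and -2.76 in vemurafenib and -0.57, -0.26 and -3.10 in DMSO, so that 1 library stood far below the others in both arms. JARID2 had scores of 0.79, 0.43 and 2.55 in vemurafenib and 0.24, 0.56 and 1.45 in DMSO (medians 1.35 and 1.03, edgeR/RRA adjusted p = 0.536 and 0.849), and JARID2_3 alone had 8.57, 26.6 and 323 CPM in vemurafenib and 5.56, 30.1 and 177 CPM in DMSO, against 7.63, 10.3 and 13.2 CPM at day 0. AEBP2 had -1.35, 2.35 and -0.03 in vemurafenib and 0.44, 0.77 and 0.03 in DMSO, and EZH1 -0.51, -0.81 and -0.45 in vemurafenib and -0.37, -0.59 and -0.71 in DMSO. Control guides of this library had a median of 1.01 in vemurafenib and 0.88 in DMSO against day 0.

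**Figure D5:**
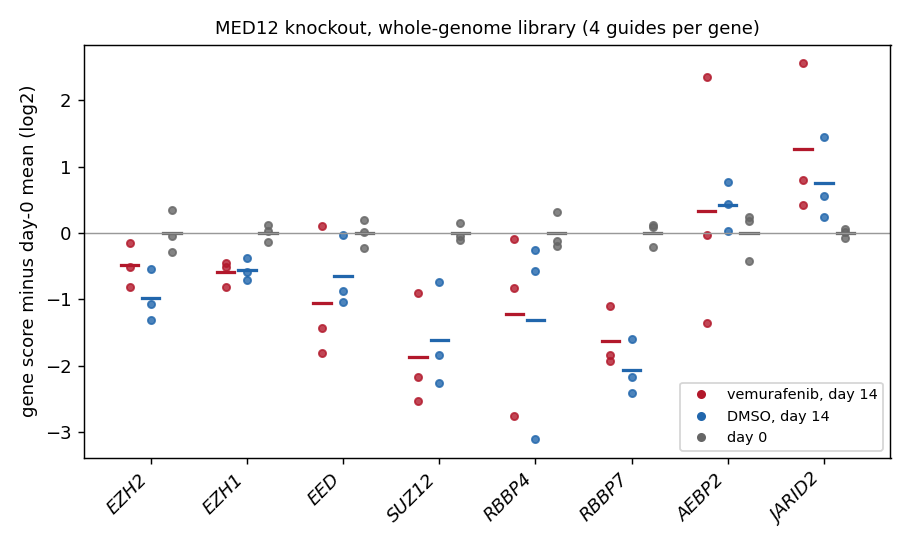
Gene score of each PRC2 member in each whole-genome library of MED12 knockout cells relative to the day-0 mean (y axis, log2), by gene (x axis). Points are libraries and short lines means of 3: vemurafenib at day 14 in red, DMSO at day 14 in blue, day 0 in grey. For RBBP4 the libraries span -2.76 to -0.09 in vemurafenib and -3.10 to -0.26 in DMSO.

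Other genes of the Polycomb system and of complexes that share RBBP4 and RBBP7 were counted in MED23 knockout cells under vemurafenib against DMSO, where 10.8% of all genes were called. Of 23 genes of PRC1, the complex that ubiquitinates histone H2A, 2 rose, RING1 (median 0.83, edgeR/RRA adjusted p = 0.003) and PCGF1 (0.85, adjusted p = 0.0467), and 0 fell, a share no larger than that of all genes, with a median over the list of 0.12. Of 3 H3K27 demethylase genes, which encode the enzymes that remove the PRC2 mark or their paralog, KDM6A fell (median -0.84, edgeR/RRA adjusted p = 9.51e-06). The median over that list was -0.30. Of 5 methyltransferase genes for lysine 36, whose product hinders PRC2, NSD1 fell (-0.61, edgeR/RRA adjusted p = 0.024). The other genes of this list were not called, and the median over the list was 0.12, on the other side of 0 from NSD1. None of 3 further PRC2 accessory genes, 6 genes of the H2A deubiquitinase PR-DUB, 12 of NuRD, 3 of CAF-1 with HAT1, 11 of SIN3 and 3 of NURF were called, with list medians of -0.16, 0.07, 0.10, 0.83, 0.08 and 0.31. In DMSO against day 0 of the same cells, where 18.2% of all genes were called, KDM6A rose (0.76, edgeR/RRA adjusted p = 0.0163), as did SCML2 and HAT1, while CHAF1A, SIN3A and BPTF fell. In MED12 knockout cells KDM6A fell at day 8 of vemurafenib against DMSO (-0.41, edgeR/RRA adjusted p = 0.00209), where 1.7% of all genes were called. At day 14, where 1.43% were called, 0 of 3 demethylase genes were called and BPTF of NURF fell (-0.56, edgeR/RRA adjusted p = 0.032). For MED12 minus MED23 the growth difference called SIN3B (1.26), BPTF (1.48) and SMARCA5 (1.40), where 5.92% of all genes were called. The vemurafenib difference called NSD1 (1.44) and SMARCA5 (-1.22), where 4.22% were called.

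Likeness between genes was described as the Pearson correlation of gene score over the 24 epigenetic libraries, each screen centred on its day-0 mean. The libraries share groups and growth time, so these values describe and do not test. Against the mean score of EZH2, EED and SUZ12, RBBP4 had r = 0.89, RBBP7 0.50, EZH1 0.46, JARID2 -0.17 and AEBP2 -0.20. Of 1107 genes that are not members, the 5 with the highest values were EHMT1 (0.94), UBE3D (0.89), HJURP (0.89), LIN54 (0.88) and USP9X (0.86), where the median gene had 0.09 and the 95th percentile was 0.69.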

How the data were processed

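Guide counts per library were used as the authors deposited them, with no normalization. Per the submitters' processing notes the tools were bcl2fastq, HISAT2 and HTSeq; their versions, settings and guide reference were not stated there. Files list guide names and no guide sequences. Guides of each table were fitted in R 4.3.3 with edgeR 4.0.16 (quasi-likelihood test, TMM scaling, whose factors differed widely between groups, filterByExpr with a count minimum of 10 and a total of 15, 1 mean per group over all libraries). Guide p-values were combined per gene by RRA (alpha 0.25, genes with at least 3 guides, both directions) and adjusted by Benjamini-Hochberg over all genes at 0.05. The steps were tested on simulated data. Control guides were 267 AAVS1 and 83 CTRL guides, and the 1000 guides named NO_CURRENT in the whole-genome library; 714 guides named Zhang were not used. Alternatives were no filter, scaling to control guides, the replicate number as a block, DESeq2 1.42.0, an RRA alpha of 0.1, limma 3.58.1 on gene scores, leaving out each library and, added after seeing the data, scaling by library totals alone. Replicate numbers paired the MED12 libraries (same-number correlations of deviations 0.332 to 0.899 in the epigenetic and 0.458 to 0.919 in the whole-genome screen) but not all MED23 libraries. Besides all 8 members, guides named are the highest, the lowest and any called per contrast, and genes of other lists are named only for the contrasts described; single-library guides described beyond this were chosen after their values were seen. Members and lists were chosen with earlier results of these data known.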

Additional observations from a re-analysis of the deposited data

Results flagged for a closer look

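Differences between the knockout lines that passed their own test concerned EZH2 and RBBP4. The growth effect of EZH2 in DMSO against day 0 differed by -1.40 (median over guides, MED12 minus MED23, edgeR/RRA adjusted p = 0.00148), and this passed in all 19 alternatives run, with values from -1.64 to -1.05. The vemurafenib effect of RBBP4 differed by -1.55 (edgeR/RRA adjusted p = 0.0441), and this passed in 11 of 19 alternatives. Vemurafenib dose and knockout cannot be told apart in the RBBP4 difference. Knockout and screen cannot be told apart in either difference. No EZH2 guide was called singly in the growth difference, and no RBBP4 guide in the vemurafenib difference.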

How the results depend on the processing

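Scaling by library totals alone, chosen after seeing the data, moved most. For vemurafenib against DMSO in MED23 knockout cells it left 2 members called in place of 4, EED and RBBP4, and the median of EZH2 reversed to -0.20, where the median over all genes was -0.97. For vemurafenib against day 0 there it left 0 in place of 1, and EED reversed to -0.28, where the median over all genes was -1.15. For vemurafenib against day 0 in MED12 knockout cells it called 1 member, EZH2, in place of 0. Apart from this scaling, the calls of EZH2, EED and RBBP4 for vemurafenib against DMSO in MED23 knockout cells, of EED for vemurafenib against day 0 there, and of EZH2 and RBBP4 for DMSO against day 0 in MED12 knockout cells held in 12 of 12 alternatives. Limma called a large share of all genes in the epigenetic screens. In MED23 knockout cells this was 37.6% for vemurafenib against DMSO, 59.6% for DMSO and 53.5% for vemurafenib against day 0. In MED12 knockout cells it was 34.1% for DMSO and 35.4% for vemurafenib against day 0. In the whole-genome screen it was 3.87% for DMSO and 6.39% for vemurafenib against day 0. For MED12 minus MED23 it was 24.4% for growth and 12.6% for the drug. The cause of the following moves in the count of members called was not tested. For vemurafenib against DMSO in MED23 knockout cells the count of 4 was 3 without DMSO replicate 3 or vemurafenib replicate 1, when RBBP7 was lost, and 5 with limma, which gained SUZ12 and AEBP2 and lost RBBP7. For DMSO against day 0 there the count of 1 was 0 with scaling to control guides and with an RRA alpha of 0.1, 5 with limma, and 0 to 1 when a library was left out. For vemurafenib against day 0 there it was 5 with limma and 1 to 2 when a library was left out, with EZH2 gained without vemurafenib replicate 1 and JARID2 without day-0 replicate 1. In MED12 knockout cells the count of 3 for DMSO against day 0 was 5 with limma, and 2 with scaling to control guides, an RRA alpha of 0.1, library totals, or without DMSO replicate 1 or 3, when EED was lost. The 0 for vemurafenib against day 0 was 1 with the replicate block and 6 with limma. In the whole-genome screen the 0 against day 0 was 1 in DMSO (RBBP7) and 2 in vemurafenib (RBBP7 and SUZ12) with limma. For MED12 minus MED23 the growth difference gave 2 with limma, and the drug difference 2 with scaling to control guides, 0 with DESeq2, 3 with limma, and 0 to 1 when a library was left out. In the MED23 screen same-number correlations were 0.300 to 0.320 between vemurafenib and day 0, where each library matched its own number best, and negative for DMSO replicates 1 and 2 with both groups (-0.188 to -0.148). This is a hint from the data, not the design, that the DMSO numbers may not follow the others; labels were kept, and the replicate block, which relies on them, gave the same member counts there, 4, 1 and 1. DESeq2 left RBBP4 untested in the whole-genome screen. There 4 guides per gene and a control-guide standard deviation of change from day 0 above 1 at day 14 limit what can be seen.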
